A study of Mus musculus with 112 samples.

Results

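Mitochondria cannot take up long-chain fatty acids as acyl-CoA, and the carnitine shuttle carries them across in another form. A carnitine palmitoyltransferase of the outer membrane hands the acyl chain from CoA to carnitine, a carrier of the inner membrane (Slc25a20) exchanges acylcarnitine for free carnitine, and Cpt2 on the matrix side returns the chain to CoA. Malonyl-CoA inhibits the first of these enzymes. It is made from acetyl-CoA by the carboxylases Acaca and Acacb and is removed by malonyl-CoA decarboxylase (Mlycd), so that in heart, an organ that burns mostly fatty acids, the balance of maker and remover helps to set the entry of fuel into the mitochondrion. Slc22a5 brings carnitine into the cell, and Crat moves acetyl groups between CoA and carnitine.

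The 9 genes of malonyl-CoA control and of the carnitine shuttle were chosen by name, as Mlycd, Acaca, Acacb, Cpt1a, Cpt1b, Cpt2, Slc25a20, Slc22a5 and Crat. Each gene was represented by its brightest probe set that carries only that symbol, which gave 8 measured genes of 19938 on the array. The probe set of Cpt1b, the muscle form of the outer membrane transferase, carries a second symbol as well and is not reported here. Transcript levels were measured in hearts of male mice of 7 strains, the inbred 129S1/SvImJ, BALB/cJ (Balbc/J in the labels), C57BL/6J (C57BL6/J in the labels), C3H/HeJ, CBA/J and DBA/2J and the hybrid B6C3F1/J, a cross of C57BL/6J with C3H/HeJ. All mice received 84 kcal of a purified diet per week up to 8 weeks of age, and then stayed on the control diet or began caloric restriction (CR) for 14 weeks. Hearts were taken at 22 weeks of age after an overnight fast. Each strain and diet had 8 mice, and every array holds the RNA of a single heart. Feeding was not the same in all strains, since restricted 129S1/SvImJ and C57BL/6J mice later had a further cut in food, and BALB/cJ mice received more food than other strains on both diets.

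All values below are log2 signals, on which a difference of 1 is a doubling, and signals of different genes are not compared because each probe set has its own brightness. DBA/2J CR replicate 7 was left out, since its correlation with the mean of its group was 0.262, which leaves 56 control and 55 CR hearts. In that array the signal of Crat was 5.67, against 11.11 to 11.61 in the 7 DBA/2J CR arrays used. Another 6 arrays, each left out in turn in alternative fits, had correlations of 0.894 to 0.986. Of these, only C3H/HeJ control replicate 6 (0.986) lay within the range of the rest (0.974 to 0.997), so that the correlation does not set that array apart. The others lay below the lowest of the rest (0.9743), from CBA/J control replicate 1 (0.894) to BALB/cJ control replicate 7, which was barely below it (0.9739). Markers of ventricular cardiomyocytes were bright in every strain, with a list mean of 11.22 to 12.99 over the control arrays and 12.07 to 12.95 over the CR arrays. The mean of 10 atrial markers fell into separate sets, since it was at most 7.43 on 75 arrays and at least 8.11 on the other 36. All 16 arrays of 129S1/SvImJ belonged to the first set, but only 1 of 8 control and 5 of 8 CR arrays of C57BL/6J did. The mean of 8 white adipocyte markers had a median of 6.51 (6.21 to 7.09) in the first set and of 7.77 (6.47 to 9.78) in the second. The values of the members are therefore also given for the first set alone, a choice made after these data were seen. In such bulk tissue, fewer cells of a type and less RNA per cell cannot be told apart.

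Transcripts of the enzyme that removes malonyl-CoA and of the inner part of the shuttle were lower in CR hearts. Averaged over the 7 strains, Mlycd fell by 0.37 (SE 0.05, 1.29-fold), Cpt2 by 0.23 (SE 0.05, 1.17-fold) and Slc25a20 by 0.15 (SE 0.04, 1.11-fold). Adjusted p-values (limma, Benjamini-Hochberg over all genes) were 1.67e-08 for Mlycd, 0.00185 for Cpt2 and 0.0019 for Slc25a20. No member rose, so that 3 of the 8 passed the test, against 12.0% of all genes in either direction and 4.34% in the lower direction. The median difference of the 8 was -0.14, against -0.00 (-0.0026) over all genes.

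Of the remaining 5, Acacb, the carboxylase that sits at the mitochondrial surface, differed by -0.23 (SE 0.09, adjusted p = 0.0827). Cpt1a, the liver-type outer membrane transferase that heart also expresses, differed by -0.13 (SE 0.06, adjusted p = 0.137), and Crat by -0.09 (SE 0.05, adjusted p = 0.276). Slc22a5, the plasma membrane carnitine transporter, differed by -0.04 (SE 0.03, adjusted p = 0.484). Acaca, the cytosolic carboxylase that feeds fatty acid synthesis, differed by 0.13, with by far the widest error of the 8 (SE 0.21, adjusted p = 0.768, limma). These 5 differences did not pass the threshold.

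On the 75 arrays with an atrial list mean under 8 the same comparison called more members. Mlycd (-0.47, SE 0.05, adjusted p = 2.31e-12), Cpt2 (-0.29, SE 0.05, adjusted p = 7.99e-06) and Slc25a20 (-0.16, SE 0.03, adjusted p = 0.00053) fell again by limma. Acacb (-0.35, SE 0.10, adjusted p = 0.00824), Cpt1a (-0.23, SE 0.06, adjusted p = 0.00344) and Crat (-0.15, SE 0.05, adjusted p = 0.0323) fell there too. This made 6 of 8, against 19.4% of all genes in that comparison. Acaca and Slc22a5 did not pass, at -0.02 (SE 0.06, adjusted p = 0.838) and -0.07 (SE 0.04, adjusted p = 0.215). The SE of Acaca was 0.06 on these arrays, compared with 0.21 on all of them. C57BL/6J rests on a single control array in this set, whose spread was taken from the other groups.

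**Figure D1:**
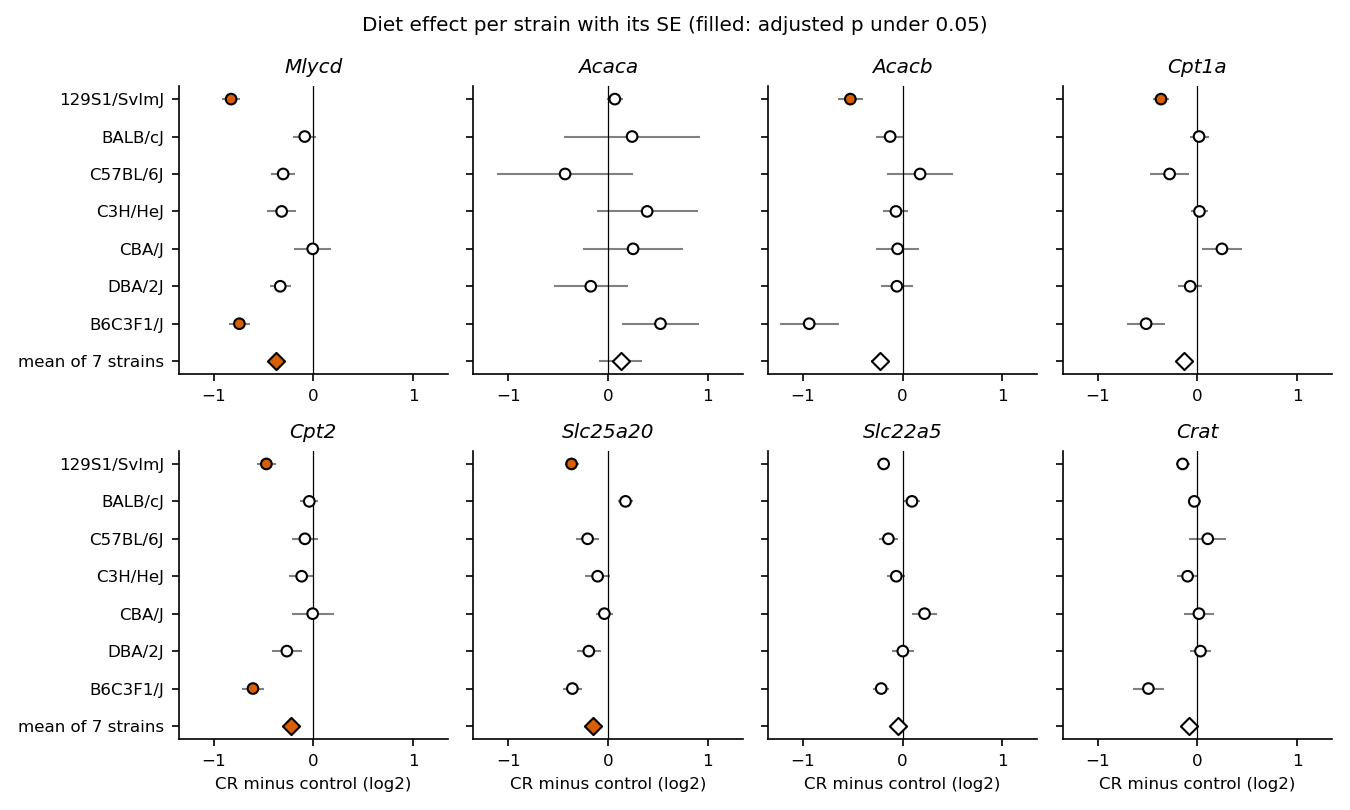
Difference in log2 signal between CR and control hearts (x axis) for each of the 8 measured genes, by strain (circles, y axis) and as the mean of the strains (diamonds), with bars of 1 SE and filled symbols for an adjusted p under 0.05. In the panel of Mlycd, 129S1/SvImJ (-0.82) and B6C3F1/J (-0.74) lie furthest left, while the bars of Acaca are the widest.

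Mlycd showed the largest response of the members across strains. In 129S1/SvImJ the control hearts ran from 8.05 through a median of 8.19 to 8.40, and the CR hearts from 7.09 through 7.34 to 7.84. Every CR heart lay below every control heart. The difference was -0.82 (SE 0.09, 1.77-fold lower, limma adjusted p = 1.69e-05 within the strain). In B6C3F1/J the control hearts ran from 7.74 through 8.00 to 8.22 and the CR hearts from 6.97 through 7.19 to 7.69. These groups did not overlap either, and the difference was -0.74 (SE 0.11, 1.67-fold lower, limma adjusted p = 0.00118). These were the only strains in which any member was called, with 5 of 8 members in 129S1/SvImJ (against 6.83% of all genes) and 2 of 8 in B6C3F1/J (against 0.908%).

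Diets overlapped for Mlycd in the other 5 strains. DBA/2J had a median of 8.03 in control hearts (7.57 to 8.20) and of 7.64 in CR hearts (7.33 to 7.97), with a difference of -0.33 (SE 0.10). C3H/HeJ had 7.90 (7.04 to 8.30) against 7.45 (7.14 to 7.87), with a difference of -0.32 (SE 0.14), and C57BL/6J had 7.53 (7.19 to 7.99) against 7.29 (6.99 to 7.51), with a difference of -0.30 (SE 0.12). None of these differences passed the test within its strain, with adjusted p-values of 0.711, 0.665 and 0.293 by limma. Markers also moved with diet in C57BL/6J, where the atrial list mean differed by -1.88 and the white adipocyte list mean by -0.99. The fibroblast list mean differed by -0.45 and the ventricular one by 0.39. The part of these markers in the C57BL/6J difference was not tested. BALB/cJ had medians of 7.59 and 7.39 and a difference of -0.09 (SE 0.11), and CBA/J had medians of 7.75 and 7.56 and a difference of -0.01 (SE 0.19). The CBA/J value contains control replicate 1, whose signal of 6.24 lies far below the other 7 control hearts (7.51 to 7.96). Without it the control mean was 7.75 and the difference -0.19 (SE 0.09, limma adjusted p = 0.45).

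The strains differed in this response. The moderated F test of the strain by diet interaction gave F = 5.20 for Mlycd (limma adjusted p = 0.0261), and 1 of the 8 members passed, against 0.712% of all genes. That call was absent with DBA/2J CR replicate 7 included (adjusted p = 0.319) and with each array centred on its median (adjusted p = 0.0587). On the 75 arrays with an atrial list mean under 8, Mlycd (adjusted p = 0.000611), Slc25a20 (0.0139) and Cpt1a (0.0401) passed. Among the other 7 members on all arrays the adjusted p-value of limma ranged from 0.121 for Slc25a20 to 0.955 for Acaca. The contrast of the strains whose CR food was lowered once more (129S1/SvImJ and C57BL/6J) with the hybrid, DBA/2J, CBA/J and C3H/HeJ called 0 of 8 members, against 0.311% of all genes and 0 members at an unadjusted p under 0.05, which 9.88% of all genes had. For Mlycd that contrast was -0.21 (SE 0.12, limma adjusted p = 0.55).

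**Figure D2:**
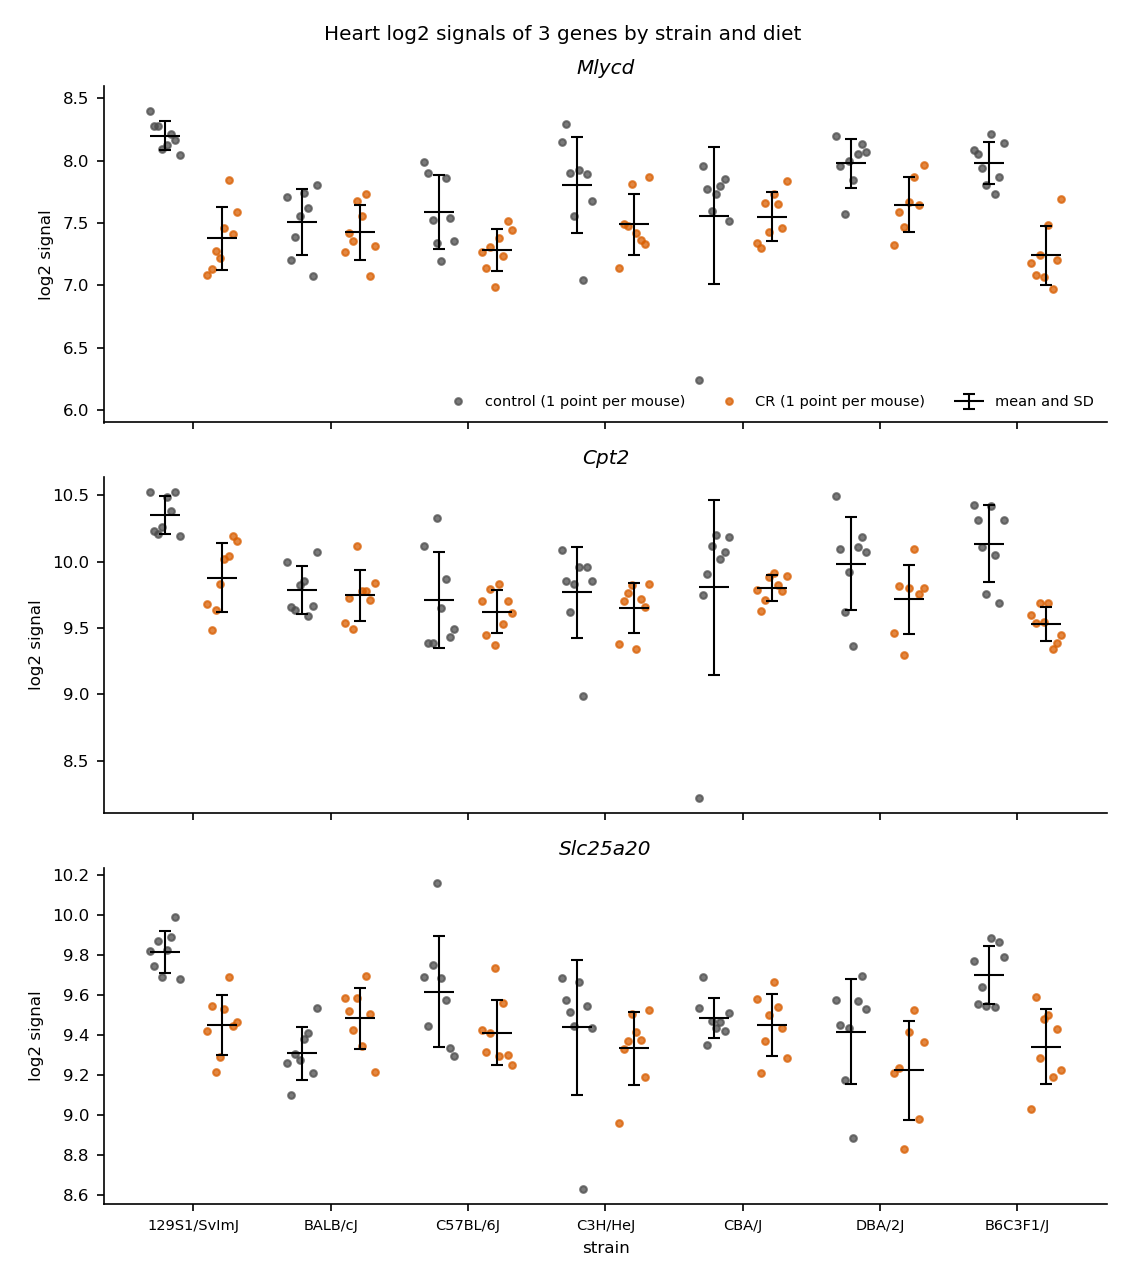
Log2 signals (y axis) of Mlycd, Cpt2 and Slc25a20 in control (grey) and CR (orange) hearts of 7 strains (x axis), 1 point per mouse, with the mean and SD of each group. Control and CR hearts separate for Mlycd in 129S1/SvImJ and B6C3F1/J, and CBA/J control replicate 1 is the lowest point for Mlycd (6.24) and Cpt2 (8.22).

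Cpt2 and Slc25a20, which act one after the other at the inner membrane, fell in the same strain as Mlycd. In 129S1/SvImJ, Cpt2 ran from 10.19 through 10.32 to 10.52 in control hearts and from 9.48 through 9.92 to 10.19 in CR hearts. The groups touched without overlapping, at 10.1906 for the lowest control and 10.1903 for the highest CR heart. The difference was -0.47 (SE 0.10, limma adjusted p = 0.00526). Slc25a20 ran from 9.68 through 9.82 to 9.99 in control hearts and from 9.21 through 9.46 to 9.69 in CR hearts of that strain, which overlap slightly. It fell by 0.37 (SE 0.07, limma adjusted p = 0.00259).

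In B6C3F1/J, Cpt2 ran from 9.69 through 10.21 to 10.42 in control hearts and from 9.34 through 9.54 to 9.69 in CR hearts. The ranges met at 9.6892 and 9.6853 without overlapping. It fell by 0.60 (SE 0.11, limma adjusted p = 0.0143), and on the arrays with an atrial list mean under 8, which left 6 control and 3 CR hearts, the difference was -0.62 with an adjusted p of 0.165. Slc25a20 differed by -0.36 (SE 0.09) there, with an adjusted p of 0.0649. Averaged over the other 6 strains, without 129S1/SvImJ, the difference was -0.19 for Cpt2 (limma adjusted p = 0.051) and -0.12 for Slc25a20 (0.0743). Without B6C3F1/J it was -0.16 for Cpt2 (0.0759) and -0.12 for Slc25a20 (0.0473), so that Slc25a20 kept its call there. Mlycd passed the test without any one strain.

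The outer part of the pathway moved in 129S1/SvImJ as well. Acacb ran from 9.08 through 9.34 to 9.71 in control hearts and from 8.18 through 8.89 to 9.18 in CR hearts, and fell by 0.52 (SE 0.12, limma adjusted p = 0.0113). Cpt1a ran from 8.77 through 8.84 to 9.16 in control hearts and from 8.14 through 8.55 to 8.74 in CR hearts, without overlap, and fell by 0.36 (SE 0.08, limma adjusted p = 0.00591). In this strain, transcripts of Acacb, which makes malonyl-CoA, of Mlycd, which removes it, and of Cpt1a, which it inhibits, were all lower. The calls of Acacb and Cpt1a were lost in the alternative fits given below. The 3 members that did not pass in this strain were Crat (-0.15, adjusted p = 0.236), Slc22a5 (-0.19, adjusted p = 0.0872) and Acaca (0.07, adjusted p = 0.703), by limma.

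Control and CR hearts did not overlap for 3 members in 129S1/SvImJ (Mlycd, Cpt1a and Cpt2), against 1.83% of all genes, and for 2 in B6C3F1/J (Mlycd and Cpt2), against 0.326%. In the other strains 0 of 8 members passed, where limma called 0% of all genes in BALB/cJ, 0.251% in C57BL/6J, 0.0552% in C3H/HeJ, 0.015% in CBA/J and 0.01% in DBA/2J. At an unadjusted p under 0.05, 1 member each would pass in BALB/cJ, C57BL/6J, C3H/HeJ and DBA/2J and 0 in CBA/J. The share of all genes at that threshold was 6.52% in BALB/cJ, 12.6% in C57BL/6J, 7.34% in C3H/HeJ, 5.11% in DBA/2J and 6.77% in CBA/J. In BALB/cJ this was Slc25a20, which was higher in CR hearts (0.18, SE 0.08, adjusted p = 0.743), and in the other 3 it was Mlycd.

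Several differences that did not pass in B6C3F1/J were larger than those in 129S1/SvImJ. Acacb differed by -0.94 (SE 0.30, adjusted p = 0.107), with control hearts from 7.87 through 9.27 to 9.70 and CR hearts from 7.00 through 8.01 to 9.26. Crat differed by -0.49 (SE 0.16, adjusted p = 0.107) and Cpt1a by -0.51 (SE 0.19, adjusted p = 0.146), by limma within the strain. Markers moved with diet in this strain, since the atrial list mean was 1.09 higher in CR than in control hearts and the white adipocyte list mean 0.16 higher. The macrophage list mean was 0.31 higher, that of ventricular cardiomyocytes 0.17 lower (-0.17) and that of endothelial cells 0.34 lower (-0.34). The part of these markers in the differences was not tested. On its 9 arrays with an atrial list mean under 8, the difference of Mlycd was -0.92 (limma adjusted p = 0.021). In 129S1/SvImJ the atrial list mean differed by 0.03 between diets and the white adipocyte list mean by -0.29. The macrophage list mean differed by 0.19 and the ventricular one by -0.03. The endothelial list mean differed by -0.26, with control hearts from 8.70 to 9.04 and CR hearts from 8.49 to 8.66, without overlap. The part of these markers in the differences of 129S1/SvImJ was not tested either.

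The calls within strains depended on the fit. With the atrial and white adipocyte list means as covariates, 0 of the 5 calls in 129S1/SvImJ passed. The differences were then -0.66 for Mlycd (limma adjusted p = 0.058), -0.44 for Acacb (0.361), -0.21 for Cpt1a (0.509), -0.48 for Cpt2 (0.251) and -0.38 for Slc25a20 (0.179). A single fit of all 14 groups leaves every difference as it is and pools the spread. In 129S1/SvImJ it kept the calls of Mlycd (limma adjusted p = 1.07e-05) and Slc25a20 (0.0223) and lost those of Acacb (0.326), Cpt1a (0.296) and Cpt2 (0.0597). In B6C3F1/J it called 6 members, namely Mlycd (limma adjusted p = 0.000163), Cpt2 (0.0036), Acacb (0.00526), Crat (0.0089), Slc25a20 (0.0103) and Cpt1a (0.0197).

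Promoter sequences of the genes that fell across strains are shown to let their common features be seen. They were taken from RefSeq (build GRCm38.p6), which holds 7 of the 9 genes, and run from 250 bases before to 50 bases from the annotated start, written 5′ to 3′ along the gene. Capitals mark the GC box GGGCGG and the CCAAT box on either strand, so that a box on the opposite strand reads CCGCCC or ATTGG.
Mlycd, chr8:119394644-119394943, plus strand: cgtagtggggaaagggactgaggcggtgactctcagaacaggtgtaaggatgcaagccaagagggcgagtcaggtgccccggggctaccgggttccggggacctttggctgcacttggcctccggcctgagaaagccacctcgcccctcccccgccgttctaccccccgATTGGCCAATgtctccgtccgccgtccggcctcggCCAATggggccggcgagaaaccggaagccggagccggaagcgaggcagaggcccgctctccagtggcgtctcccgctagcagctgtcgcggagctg
Cpt2, chr4:107923540-107923839, minus strand: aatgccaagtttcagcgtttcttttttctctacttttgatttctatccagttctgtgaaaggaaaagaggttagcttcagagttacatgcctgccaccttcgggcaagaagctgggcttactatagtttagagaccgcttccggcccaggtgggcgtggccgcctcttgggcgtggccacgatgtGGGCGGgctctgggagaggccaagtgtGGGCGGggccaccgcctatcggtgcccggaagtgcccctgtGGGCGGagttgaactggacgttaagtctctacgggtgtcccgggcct
Slc25a20, chr9:108661886-108662185, plus strand: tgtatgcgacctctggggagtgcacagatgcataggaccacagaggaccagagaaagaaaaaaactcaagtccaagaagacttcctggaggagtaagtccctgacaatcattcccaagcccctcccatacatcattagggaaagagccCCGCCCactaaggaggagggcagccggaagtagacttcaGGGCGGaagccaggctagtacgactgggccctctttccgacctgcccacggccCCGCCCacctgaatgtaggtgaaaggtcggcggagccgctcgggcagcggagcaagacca

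Cpt2 and Slc25a20 each held 3 GC boxes in this window, and Mlycd held 0 GC boxes and 3 CCAAT boxes, of which an inverted pair lies from -81 to -72 relative to the start. GC boxes also lay in promoters of members that did not pass across strains, with 3 in Cpt1a and 5 in Slc22a5. A GC box occurs in 35.7% and a CCAAT box in 37.4% of the 32851 promoters of the same length. PPAR-alpha, a fatty acid sensor that drives many genes of fat burning, and related receptors bind copies of AGGTCA, typically a pair spaced by a single base (AGGTCANAGGTCA). That pair occurs in 0.0396% of all promoters and in 0 of the 7 member promoters. A single AGGTCA, found in 16.3% of promoters, lies in none of the 3 shown above but in those of Acacb and Cpt1a, on the opposite strand (capitals) in these 40-base stretches.
Acacb, chr5:114165528-114165567, plus strand: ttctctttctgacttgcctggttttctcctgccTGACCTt
Cpt1a, chr19:3323190-3323229, plus strand: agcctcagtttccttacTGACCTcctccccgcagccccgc
The start that the table uses for Acacb lies 19197 bases, and that for Cpt1a 975 bases, downstream of the first base of the gene in the same annotation. A match of letters is a description of the window and no site of binding.

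**Figure D3:**
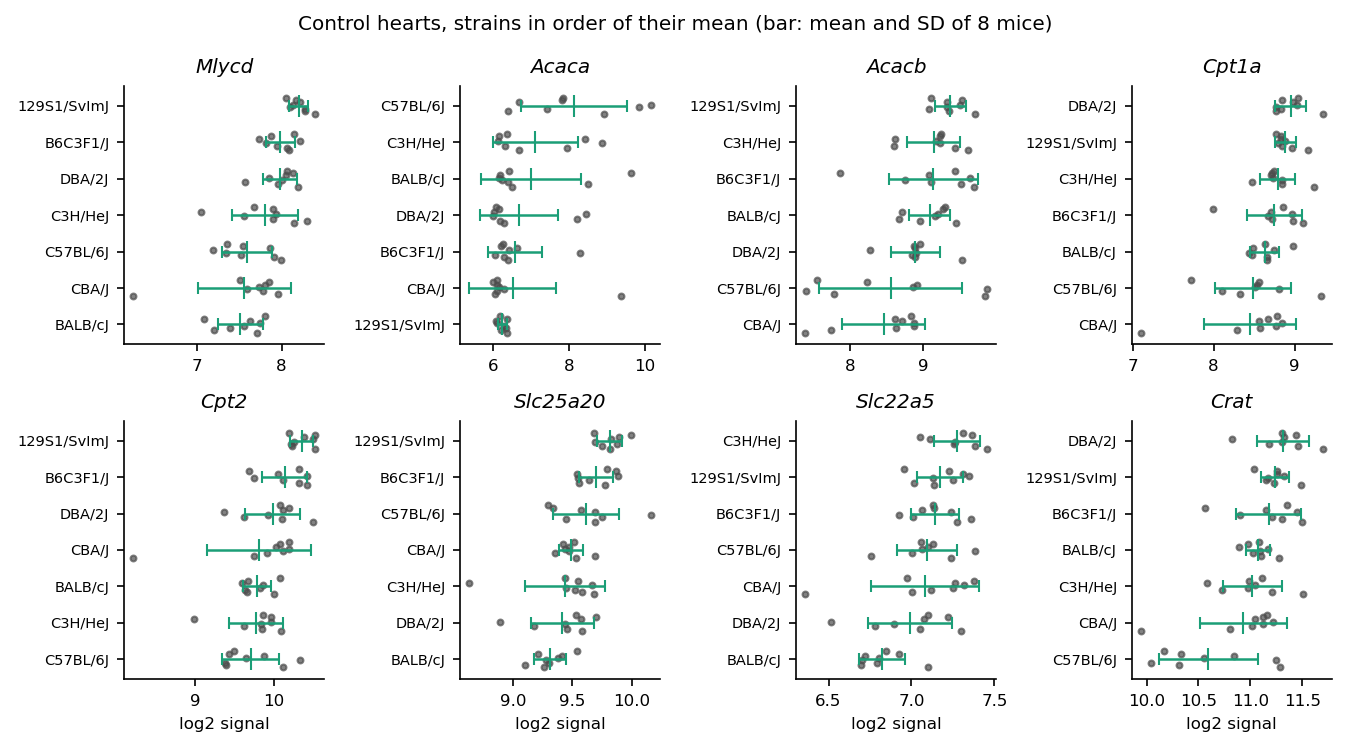
Log2 signals (x axis) of the 8 genes in control hearts, with the 7 strains of each panel ordered by their mean (y axis), 1 point per mouse and a bar for the mean and SD of 8 mice. 129S1/SvImJ heads the order for Mlycd, Acacb, Cpt2 and Slc25a20 and is last for Acaca.

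Strains also differed on the control diet. Among control hearts the moderated F test called all 8 members, at a background of 60.7% of all genes, with adjusted p-values of limma from 5.89e-06 for Mlycd to 0.0468 for Acaca. 129S1/SvImJ had the highest control mean for Mlycd (8.20 ± 0.11), Acacb (9.37 ± 0.21), Cpt2 (10.35 ± 0.14) and Slc25a20 (9.82 ± 0.11; SD, n = 8 each). It was second for Cpt1a (8.88 ± 0.13) and Crat (11.24 ± 0.13), below DBA/2J (8.95 ± 0.19 and 11.32 ± 0.25), and for Slc22a5 (7.17 ± 0.14), below C3H/HeJ (7.27 ± 0.14). It was the lowest of all strains for Acaca (6.25 ± 0.12).

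Below the top, the order of control means for Mlycd was B6C3F1/J (7.98 ± 0.17), DBA/2J (7.98 ± 0.20), C3H/HeJ (7.81 ± 0.39), C57BL/6J (7.59 ± 0.30), CBA/J (7.56 ± 0.55) and BALB/cJ (7.51 ± 0.26; SD, n = 8 each). BALB/cJ was also lowest for Slc25a20 (9.31 ± 0.13) and Slc22a5 (6.82 ± 0.14), and C57BL/6J for Cpt2 (9.71 ± 0.36) and Crat (10.60 ± 0.48). Only 1 of the 8 control arrays of C57BL/6J had an atrial list mean under 8, against all 8 of 129S1/SvImJ. Strain and these sets therefore cannot be told apart in the order of control means, nor in the F test above. CBA/J was lowest for Acacb (8.46 ± 0.57) and Cpt1a (8.45 ± 0.57), and this place rests on control replicate 1, without which the CBA/J means were 8.61 and 8.64, above those of C57BL/6J (8.56 and 8.48). The widest step between neighbours was that of Acaca from C3H/HeJ (7.11 ± 1.12) to C57BL/6J (8.13 ± 1.39; SD, n = 8 each), of 1.02. Of 48 neighbouring pairs (6 per gene), 0 differed beyond the spread between mice by an exact permutation test (two-sided, Benjamini-Hochberg over the 48). The smallest unadjusted permutation p was 0.0103, for Mlycd in B6C3F1/J against 129S1/SvImJ (adjusted 0.492). Neighbours were taken from the order of the same means, so that only close pairs were tested. Strains further apart in the order were not compared by this test.

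The distance between the highest and the lowest strain mean was 0.69 in control and 0.41 in CR hearts for Mlycd, 0.64 and 0.35 for Cpt2, and 0.50 and 0.26 for Slc25a20. It was 1.88 and 1.38 for Acaca and 0.45 and 0.39 for Slc22a5. For Acacb (0.91 and 0.88) and Crat (0.72 and 0.66) it changed less, and for Cpt1a it was wider under CR (0.50 and 0.67). These distances are descriptions without a test. Diet took up 25.1% of the sum of squares of Mlycd over all hearts used, strain 13.4%, strain by diet 14.7% and the spread within groups 46.8%. For Cpt2 diet took up 10.9% and for Slc25a20 10.6%, and for the other 5 members between 0.288% (Acaca) and 4.28% (Acacb).

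The control hearts of the hybrid were set against the mean of its parents. Cpt2 was 0.40 higher in B6C3F1/J than the mean of C57BL/6J and C3H/HeJ (SE 0.13, limma adjusted p = 0.028) and Crat, which buffers the pool of acetyl-CoA, was 0.37 higher (SE 0.11, limma adjusted p = 0.0239). These were 2 of 8 members, against 9.96% of all genes. Crat stood at 11.18 ± 0.31 in the hybrid, 10.60 ± 0.48 in C57BL/6J and 11.02 ± 0.28 in C3H/HeJ (SD, n = 8 each). Cpt2 stood at 10.13 ± 0.29, 9.71 ± 0.36 and 9.77 ± 0.34 in the same order. Neither call held under 4 of the alternatives. With DBA/2J CR replicate 7 included the differences stayed at 0.40 for Cpt2 and 0.37 for Crat (limma adjusted p = 0.352 and 0.52). Without C3H/HeJ control replicate 6 they were 0.34 and 0.34 (limma adjusted p = 0.0683 and 0.0501), with the marker means as covariates 0.30 and 0.30 (0.105 and 0.0956), and on the 75 arrays with an atrial list mean under 8 they were 0.33 and 0.26 (0.201 and 0.392).

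Acaca behaved unlike the other members. Over all arrays its signal ran from 6.00 through 6.34 to 10.16 in control hearts and from 5.96 through 6.47 to 10.96 in CR hearts, and 80.3% of its sum of squares lay within groups. On the 75 arrays with an atrial list mean under 8, Acaca ran from 5.96 through 6.28 to 7.95, and on the other 36 from 6.18 through 8.35 to 10.96. In 129S1/SvImJ, where every heart had an atrial list mean under 8, all 16 values lay between 6.07 and 6.74. Within 74 hearts of the first set (a group with a single such heart left out), residuals of Acaca did not follow the white adipocyte list mean (Pearson r = 0.130, Spearman rho = 0.004, permutation p = 0.435 and 0.977, adjusted 0.6 and 0.978 over 80 gene and list pairs, r = -0.023 without the 2 farthest hearts). The white adipocyte list mean spans only 6.21 to 7.09 in the first set. Over all hearts used, with both sets together, residuals of Acaca gave r = 0.959 and rho = 0.916 with this list (r = 0.952 without the 2 farthest hearts). The sets are apart on the atrial list but overlap on the white adipocyte list. The pooled r also contains any difference between the sets, and the part of adipocytes in it was not tested.

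**Figure D4:**
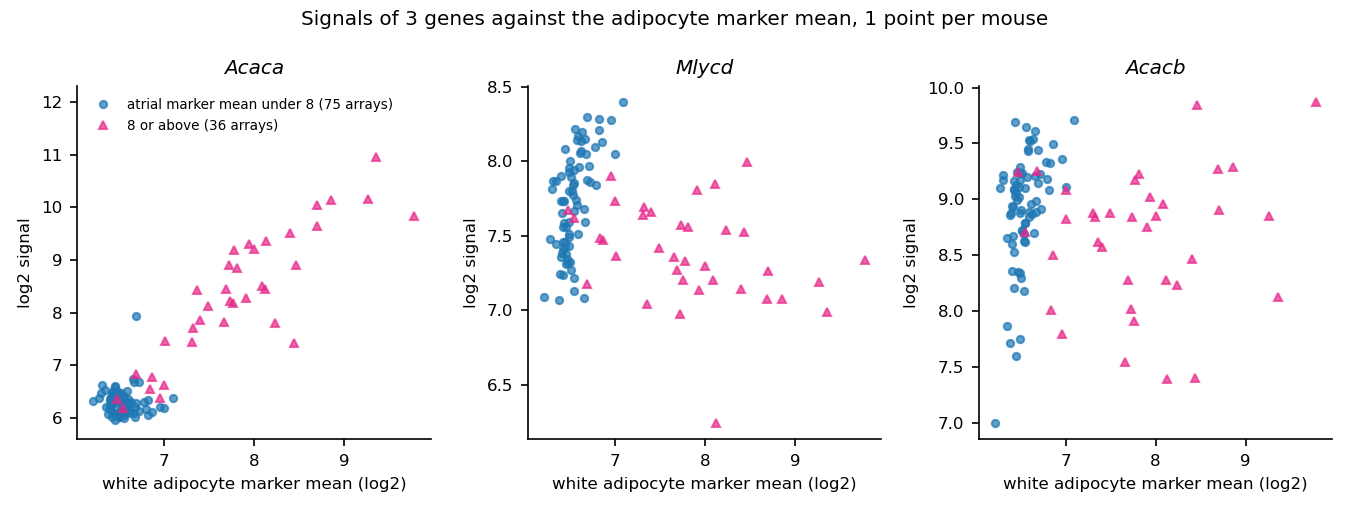
Log2 signals of Acaca, Mlycd and Acacb (y axes) against the mean log2 signal of 8 white adipocyte markers (x axis), 1 point per mouse, with circles for the 75 arrays with an atrial marker mean under 8 and triangles for the other 36. Acaca is at or below 7.95 in the circles and reaches 10.96 in the triangles, whereas the 2 sets overlap over most of the range of Acacb.

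Medians of most other members were lower on the 36 arrays with an atrial list mean of 8 or above, though all ranges overlapped. Strains were unequally spread over these sets, with all 16 arrays of 129S1/SvImJ in the first and 7 of 8 control arrays of C57BL/6J in the second, so that strain and set cannot be told apart in the medians. The median of Mlycd was 7.74 (7.07 to 8.40) in the first set and 7.36 (6.24 to 7.99) in the second, that of Cpt2 was 9.89 and 9.61, that of Crat 11.11 and 10.86, and that of Slc25a20 9.52 and 9.39. For Cpt1a the medians were 8.67 and 8.71. With the atrial and white adipocyte list means as covariates on all arrays, the across-strain difference of Mlycd was -0.39 (SE 0.04, limma adjusted p = 2.88e-11), of Cpt2 -0.21 (SE 0.05, adjusted p = 0.00126) and of Slc25a20 -0.11 (SE 0.03, adjusted p = 0.00838). In the same fit Acaca was 0.34 higher under CR (SE 0.06, limma adjusted p = 1.9e-05), a call that the fit on the 75 arrays did not make.

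Mice of the same strain and diet also differed from each other, and some of the members did so together. The hearts fall into separate sets by their atrial list mean. Correlations between members are therefore given within the 74 hearts of the first set, over residuals from the group means. There 14 of the 28 pairs of members passed a permutation test within groups by Pearson's r (Benjamini-Hochberg over the 28 pairs), all with a positive sign.

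Acacb, Cpt1a, Crat and Cpt2 formed the tightest group. Acacb and Crat gave r = 0.912 and rho = 0.868, Acacb and Cpt1a r = 0.898 and rho = 0.788, and Cpt1a and Crat r = 0.840 and rho = 0.660. Each of these had a permutation p of 1e-05, the smallest that 100000 permutations can give (adjusted 4.67e-05 for r and 4e-05 for rho), and r without the 2 farthest hearts was 0.874, 0.862 and 0.774. Cpt2 followed Acacb (r = 0.743, rho = 0.797), Crat (0.690 and 0.716) and Cpt1a (0.685 and 0.648), with permutation p = 1e-05 each. Without the 2 farthest hearts these values of r were 0.723, 0.620 and 0.652.

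Marker lists moved with these 4 genes in the same hearts. The ventricular cardiomyocyte list mean gave r = 0.913 and rho = 0.845 with Acacb, 0.884 and 0.867 with Crat, 0.782 and 0.635 with Cpt1a, and 0.661 and 0.670 with Cpt2, and r without the 2 farthest hearts was 0.883, 0.842, 0.716 and 0.572. The macrophage list mean ran the other way, with r = -0.809 and rho = -0.751 for Acacb, -0.696 and -0.666 for Crat, -0.676 and -0.565 for Cpt1a, and -0.584 and -0.553 for Cpt2 (r = -0.760, -0.610, -0.609 and -0.499 without the 2 farthest hearts). Each of these had a permutation p of 1e-04, the smallest that 10000 permutations can give (adjusted 0.000889 over 80 gene and list pairs). For Mlycd the ventricular list gave r = 0.244 and rho = 0.285 (adjusted permutation p = 0.113 and 0.073, r = 0.204 without the 2 farthest hearts) and the macrophage list r = -0.387 and rho = -0.382 (0.0092 and 0.0112, r = -0.315). The endothelial list mean gave r = 0.673 and rho = 0.453 with Cpt1a, 0.626 and 0.331 with Crat, and 0.624 and 0.354 with Acacb. With Cpt2 it gave 0.347 and 0.245, and with Mlycd 0.264 and 0.317. Without the 2 farthest hearts these values of r were 0.536, 0.477, 0.479, 0.223 and 0.280. The part of these cell types in the correlations between members was not tested.

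Mlycd followed this group less closely. Its r was 0.521 with Slc22a5 (rho = 0.512, adjusted permutation p = 0.000105 and 0.00014), 0.507 with Cpt2 (rho = 0.497, 0.000249 and 0.000187) and 0.477 with Cpt1a (rho = 0.529, 0.000105 and 4e-05), and without the 2 farthest hearts it was 0.485, 0.468 and 0.427. By Pearson's r, Slc25a20 passed with Mlycd alone (r = 0.368, rho = 0.348, adjusted permutation p = 0.00928 and 0.0134, r = 0.283 without the 2 farthest hearts). With Cpt2 it passed by rank only (r = 0.210, rho = 0.288, adjusted permutation p = 0.176 and 0.0362, r = 0.320 without the 2 farthest hearts). With Acacb it gave r = -0.131 (rho = 0.043, permutation p = 0.346 and 0.741) and with Cpt1a r = -0.021 (rho = 0.121, permutation p = 0.873 and 0.341). In these hearts the carrier of the inner membrane thus did not pass the test with Acacb or Cpt1a.

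**Figure D5:**
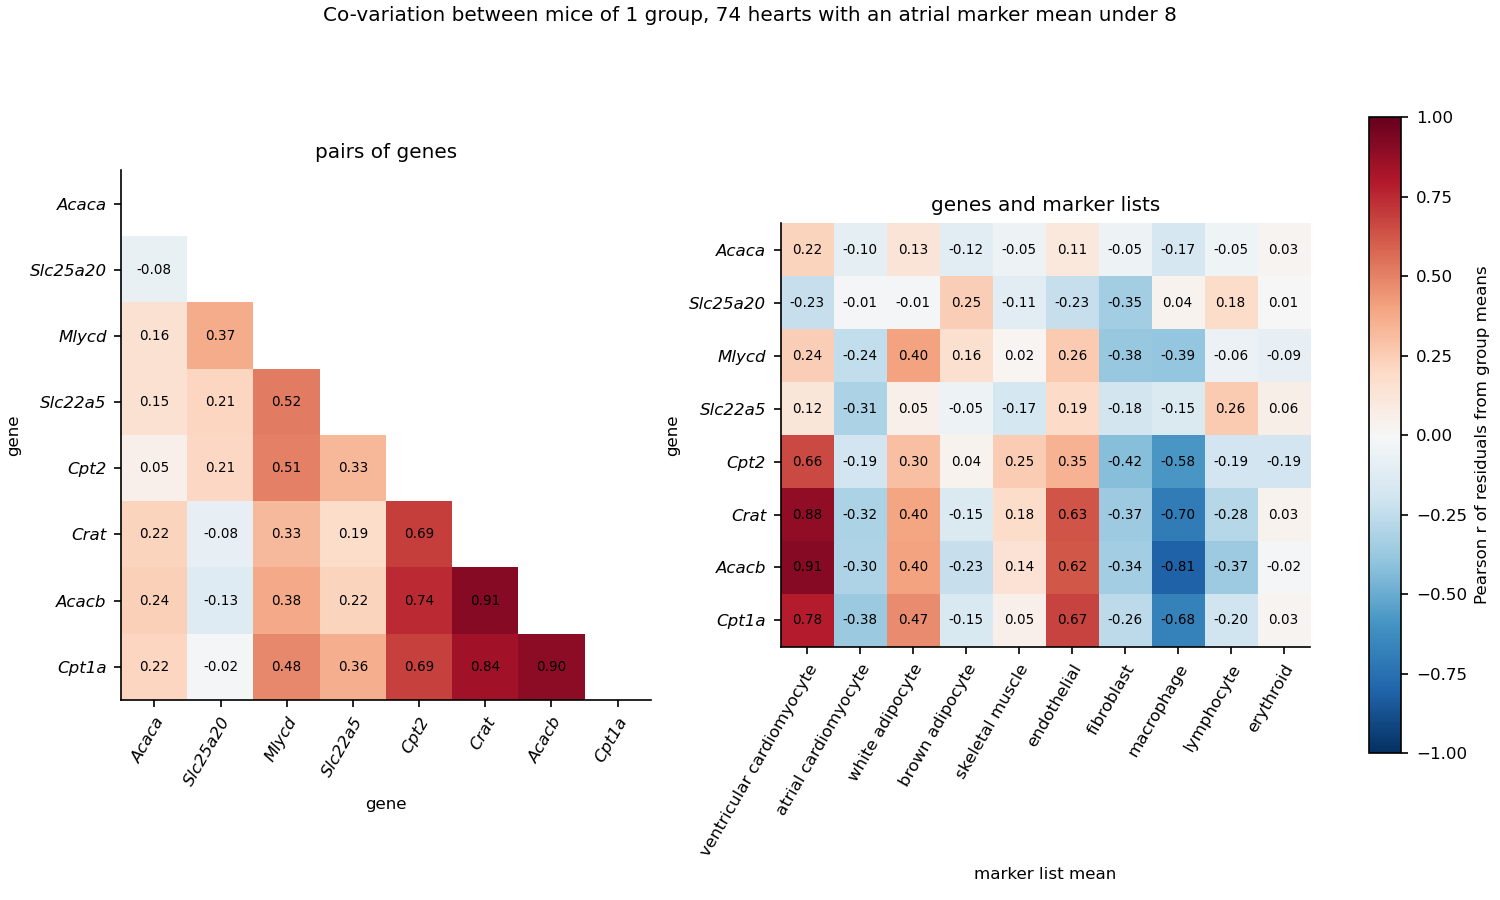
Pearson correlation over residuals from group means in the 74 hearts with an atrial marker mean under 8, for each pair of members (left) and for each member with the mean of each of 10 marker lists (right), with red for positive and blue for negative values. Acacb, Crat, Cpt1a and Cpt2 form the darkest block on the left, and the same 4 genes have the highest values with the ventricular list and the lowest with the macrophage list on the right.

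Other genes were compared with the members over the 14 group means, among 11963 genes above the 40th percentile of mean signal. Such correlations over 14 means are descriptions that also reflect strain, diet and the atrial and adipocyte content of the hearts. The patterns most like Mlycd were those of Agpat3, an acyltransferase of phospholipid synthesis (r = 0.949), Iba57, which helps build mitochondrial iron-sulfur clusters (r = 0.931), and Fdft1, squalene synthase (r = 0.893). Agpat3 fell by 0.32 across strains (SE 0.03, limma adjusted p = 7.65e-14) and Fdft1 by 0.20 (SE 0.03, adjusted p = 5.66e-06). Nearest to Acaca were Elovl6 (r = 0.961), Fasn (r = 0.960) and Tkt (r = 0.954), an elongase, the fatty acid synthase that uses malonyl-CoA and transketolase.

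Acacb was most like Dync1h1 (r = 0.974), Myh14 (r = 0.971) and Ubr2 (r = 0.963), and Cpt1a most like Mical1 (r = 0.936), Lrrc8d (r = 0.930) and Lasp1 (r = 0.925). For Cpt2 the nearest were Synpo2 (r = 0.880), again Fdft1 (r = 0.877) and Vwa3a (r = 0.867), and for Slc25a20 Adra1b (r = 0.880), Rras2 (r = 0.861) and Ncald (r = 0.854). Slc22a5 was nearest to Tap2 (r = 0.912), Phldb3 (r = 0.830) and Mtus2 (r = 0.820), and Crat to Sppl3 (r = 0.967), Cdk18 (r = 0.946) and Neurl1b (r = 0.944). No member was among the 3 genes nearest to another.

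Genes around the pathway were counted by list. Of 10 other makers, users and helpers of malonyl-CoA, such as Acly, Fasn, Acsf3 and Stk11, 0 passed the test across strains in either direction (Acly 0.27, SE 0.155, and Fasn 0.11, SE 0.32). Of 7 subunits of AMPK, the kinase that inactivates the carboxylases, Prkag1, a regulatory subunit, rose by 0.16 (SE 0.02, limma adjusted p = 5.04e-09), in all 7 strains, and the other 6 did not pass. The catalytic subunits Prkaa1 (0.02, SE 0.03) and Prkaa2 (0.05, SE 0.08) were among these. Of 9 measured genes of carnitine supply and of other carnitine carriers and transferases, Slc22a4, a carnitine and ergothioneine transporter, fell by 0.13 (SE 0.03, limma adjusted p = 0.00132), in 7 of 7 strains, and 8 did not pass. Beside the counts of these lists, 12.0% of all genes were called in either direction. The sequence of Slc22a4 is close to that of Slc22a5, and whether probes of one bind the other was not tested.

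Factors of the PPAR network that were called rose, and called targets of PPAR-alpha fell. Of 12 PPAR and partner factors 3 rose, namely Ppargc1a, the coactivator of mitochondrial genes (0.34, SE 0.06, limma adjusted p = 2.03e-06, higher in 7 of 7 strains), Ppara itself (0.29, SE 0.07, adjusted p = 0.000953) and Rxrg, a receptor partner (0.20, SE 0.05, adjusted p = 0.00743). Among all 19938 genes, 1534 rose. Of 12 measured targets outside the members 8 fell and 0 rose, against 4.34% of all genes lower in CR, and the median of the list was -0.21, against -0.00 (-0.0026) over all genes. The thioesterases Acot2 (-0.61, SE 0.07, limma adjusted p = 1.03e-11, lower in 7 of 7 strains) and Acot1 (-0.56, SE 0.07, adjusted p = 6.09e-09), the peroxisomal Pex11a (-0.23, SE 0.04, adjusted p = 8.56e-07), both lower in 6 of 7 strains, and the fatty acid transporter Cd36 (-0.17, SE 0.03, adjusted p = 1.3e-05) had the smallest p-values. The interaction of strain with diet was called for 6 of the 12, against 0.712% of all genes. They were Ucp3, an uncoupling protein (limma adjusted p = 4.54e-06), Angptl4, an inhibitor of lipoprotein lipase (6.53e-06), Pdk4, which inhibits pyruvate dehydrogenase (3.11e-05), Acot1 (8.45e-05), Pex11a (0.00588) and Acot2 (0.00939).

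Some of the enzymes that follow the shuttle passed the test. Of 15 genes of the beta-oxidation core 3 fell, namely Hadha, a subunit of the trifunctional protein (-0.10, SE 0.03, limma adjusted p = 0.0291), Etfdh, which passes electrons to ubiquinone (-0.15, SE 0.05, adjusted p = 0.0396), and the thiolase Acaa2 (-0.09, SE 0.03, adjusted p = 0.0448), and 12 did not pass, against 4.34% of all genes lower in CR. The first enzyme for medium-chain fatty acids, Acadm, was among the latter (-0.02, SE 0.05). The list median was -0.06, compared with -0.14 for the members and -0.0026 for all genes.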

How the data were processed

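Hearts of 112 mice were hybridised singly to Affymetrix Mouse Gene 1.0 ST arrays. The authors deposited log2 values, made in Affymetrix Expression Console with RMA at gene level (background correction, quantile normalization across arrays, median polish), and no version is named in the sources read here. RMA values are relative, so that a shift shared by most genes is lost in part and differences of dim genes shrink. Precision is set by the number of arrays and by the spread within groups. Of 35556 probe sets, 21789 had a single symbol in the platform annotation, 1621 several and 12146 none. The brightest probe set stood for each of 19938 genes, with no filter on signal. Acaca has 2 probe sets, of which the one with a mean of 6.95 was used and not that with 5.68.

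limma 3.58.1 (R 4.3.3) was fitted to the means of 14 groups, or to the arrays of a strain alone for tests within strains. Adjusted p-values follow Benjamini and Hochberg over all genes (threshold 0.05). They measure the spread between separate mice. On simulated data 82% of changes of 0.2 and 99% of changes of 0.4 (log2) were recovered across strains over 19938 genes. The simulation drew independent normal noise for each gene and the same change in every strain. It therefore does not cover hearts that fall into separate sets, or changes that differ between strains. Correlations used 100000 permutations within groups, or 10000 with marker lists (Python 3.11.15, scipy 1.17.1). The members and gene lists were chosen with earlier results of these data known. Named are all members, the 3 genes most like each over group means, and up to 4 called genes of each list with the smallest p, while list genes named for their interaction were added after their values were seen and list genes given as not passing were chosen for their roles. Alternatives were another quantile normalization, median centring, a filter at the 40th percentile of signal, the mean of probe sets, a trended and robust variance, array weights, an unmoderated ANOVA, a replicate block, marker covariates, a single fit, the methods' t-test, and arrays or strains left out.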

Additional observations from a re-analysis of the deposited data

Results flagged for a closer look

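In 15 of 112 combinations of member and group, a heart lay apart from the other hearts of its group by Dixon's criterion, where chance alone gives about 1 in 20. The 15 came from 9 arrays, and 6 of them from CBA/J control replicate 1. That heart had the lowest signal of its group for Mlycd (6.24), Cpt1a (7.10), Cpt2 (8.22), Slc22a5 (6.36) and Crat (9.94) and the highest for Acaca (9.36). Without it, 5 members fell across strains, since Acacb (limma adjusted p = 0.0388) and Cpt1a (0.0278) were added, while 3030 of all genes were called (15.2%, compared with 12% with that heart).

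C3H/HeJ control replicate 6 was the lowest of its group for Cpt2 (8.99) and Slc25a20 (8.63). Cpt1a was lowest of its group in 129S1/SvImJ CR replicate 2 (8.14) and B6C3F1/J control replicate 7 (7.99) and highest in DBA/2J control replicate 1 (9.35). Acacb was lowest in BALB/cJ CR replicate 6 (8.20) and CBA/J CR replicate 7 (7.60). Acaca was highest in B6C3F1/J control replicate 4 (8.28), and Slc22a5 in C3H/HeJ CR replicate 8 (7.70). The response of Mlycd to CR differed between strains (F = 5.20, limma adjusted p = 0.0261).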

How the results depend on the processing

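Mlycd fell across strains under all 25 alternatives (-0.47 to -0.30, largest limma adjusted p = 0.000168). Cpt2 lost its call without 129S1/SvImJ or B6C3F1/J, and Slc25a20 without 129S1/SvImJ. The number of members that fell across strains was 5 without CBA/J control replicate 1, 7 with array weights, 1 without the strain 129S1/SvImJ and 6 with an atrial marker mean under 8, and the 6 single arrays left out in turn gave 3 to 5. Acaca turned to -0.0225 with an atrial mean under 8. The interaction called 0 members with all 112 arrays, 0 with median centring, 2 with marker covariates and 3 with an atrial mean under 8. Control strains differed for 4 members with all 112 arrays. The hybrid contrast called 0 with all 112 arrays, 0 with covariates and 0 with an atrial mean under 8, and 0 to 3 with single arrays left out. The contrast of the further food cut called 1 with covariates (Acaca), and the within-strain tests, which made 7 calls, made 2 with covariates and 11 by the methods' t-test at an unadjusted 0.01. The causes of these changes were not tested. For the interaction, control strain, hybrid, food cut and within-strain counts, the share of all genes at each of these settings is not given. These counts therefore describe the calls of the members alone.

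Over all genes 2399 were called across strains (63.9% higher in CR), against 1066 with all 112 arrays (51.3% higher), 4481 with array weights, 1239 without 129S1/SvImJ and 3874 with an atrial mean under 8. Control and CR arrays of 1 strain with the same replicate number had a median residual correlation of 0.109 (-0.441 to 0.674, 28 of 55 over 0.1). Whether the replicate numbers pair the mice was not tested. With the replicate block 3 members fell across strains, 1 had an interaction, 8 differed between control strains, 2 in the hybrid, 0 by the food cut and 7 within strains, as without it.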
